A study of Mus musculus with 10 samples.

Results

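A group of 109 genes had a mean level of new transcripts above that of untreated cells at 0.5 h, 1 h and 6 h of SOX2 depletion. They were chosen by their own levels, as the transcribed units (TUs) of a single named gene with a mean of at least 50 fragments over the 10 libraries whose mean level exceeded that of untreated cells by a log2 difference of at least 0.35 at 0.5 h, 0.45 at 1 h and 0.5 at 6 h, and whose log2 ratio of the level at 6 h to that at 1 h was above -0.5. This left 109 of the 9852 genes that the rule could have taken (1.11%). Predicted genes (Gm, LOC and Rik symbols), genes whose symbol opens with Zfp or Slc, and Atf3, Jun, Suv39h1, Top1, Nell1, Runx2 and Ptprm were left out by name. The measure of the rule, called L here, is the log2 ratio of mean counts scaled to a common library total (CPM), with 0.1 CPM added to each mean.

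Nascent transcription was measured by TT_chem-seq, in which RNA made during a short pulse of 4-thiouridine is captured and sequenced, in the E14 line of mouse embryonic stem cells (E14Tg2A, 129/Ola, and named IB10 for the SOX2 targeting, by the study's methods). In all 10 libraries, controls included, SOX2 carried an FKBP tag in clonally derived homozygous cells, the number of clones not being given, and through the tag the small molecule dTAG-13 sends the protein to degradation. The 5 groups of 2 replicates were cells given DMSO (NT, not treated) and cells given 500 nM dTAG-13 for 0.5, 1, 2 and 6 h (hours post depletion, hpd), all labelled with 2 mM 4-thiouridine for 10 min. The cells grew without serum in LIF and inhibitors of MEK and GSK3, the medium was refreshed before treatment, and untagged cells given dTAG-13 were not analysed here, so that effects of SOX2 loss and of the compound cannot be told apart. Nothing states that replicates came from separate cultures, and p-values then measure the spread between these libraries, which may be technical.

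SOX2 is a transcription factor that, with OCT4, keeps the genes of the pluripotent state active and their enhancers accessible, and when it is lost embryonic stem cells leave that state. Embryonic stem cells transcribe many genes of the later lineages at low levels. Labelling of new RNA reads the rate of transcription and not the stable pool, so a change can be seen before the amount of messenger RNA has moved.

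The 0.5 hpd pair held both the shallowest library, replicate 2 with 11131490 fragments, and the deepest, replicate 1 with 25854106. The Sox2 TU, which reads transcription and not the tagged protein and is therefore no check of the depletion, stood between 250.3 and 298 CPM in NT and between 267 and 271 CPM at 6 hpd. The summed level of 25 markers of embryonic stem cells was 6999 to 7730 CPM in NT and 5357 to 5476 CPM at 6 hpd, with Pou5f1, Nanog, Esrrb and Zfp42 all transcribed. In bulk libraries such as these, more cells of a type and more RNA per cell cannot be told apart.

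The 250 bases before the annotated transcript start are shown for the 3 genes with the largest early rise whose TU began within 1000 bases of that start, to show what lies upstream of the genes that moved most at once. The sequences run 5′ to 3′ in the direction of the gene on GRCm38, the genome build to which the deposited mm10 positions belong, and letters in capitals mark matches to the motifs named below on either strand. Gpr4 lies at chr7:19212288-19212537 on the plus strand, Gadd45g at chr13:51846425-51846674 on the plus strand and Stum at chr1:180483520-180483769 on the minus strand.
Gpr4: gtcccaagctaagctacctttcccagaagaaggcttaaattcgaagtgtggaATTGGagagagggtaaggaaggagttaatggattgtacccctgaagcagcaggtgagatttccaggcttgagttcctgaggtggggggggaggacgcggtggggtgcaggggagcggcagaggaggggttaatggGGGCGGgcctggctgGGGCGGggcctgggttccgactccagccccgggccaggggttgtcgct
Gadd45g: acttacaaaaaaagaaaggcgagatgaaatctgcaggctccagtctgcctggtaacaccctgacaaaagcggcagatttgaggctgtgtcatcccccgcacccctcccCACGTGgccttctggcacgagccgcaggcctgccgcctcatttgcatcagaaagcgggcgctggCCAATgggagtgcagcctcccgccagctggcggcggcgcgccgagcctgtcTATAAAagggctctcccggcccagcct
Stum: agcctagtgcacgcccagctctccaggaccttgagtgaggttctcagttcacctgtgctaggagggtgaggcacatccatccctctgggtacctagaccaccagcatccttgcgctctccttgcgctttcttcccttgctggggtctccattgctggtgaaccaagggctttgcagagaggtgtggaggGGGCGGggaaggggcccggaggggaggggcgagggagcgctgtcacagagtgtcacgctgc

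The window of Gpr4 held an inverted CCAAT box and a pair of GC boxes, whose letters are GGGCGG. That of Gadd45g held an E-box (letters CACGTG) and, nearer the start, a CCAAT box. It also held the letters TATAAA of the TATA box. The window of Stum held 1 GC box. No motif was common to the 3. Over windows of 300 bases, 250 before and 50 from the start on, the CCAAT box was present in 43 of the 109 genes (39.4%, against 36.8% of the eligible genes), the GC box in 60 (55% against 61.3%) and the TATA box in 10 (9.17% against 7.04%). The letters of the SOX core (ACAATG) were in 6 windows (5.5% against 7.0%). An ETS site (CCGGAAG) was the motif with the widest gap, in 4 windows (3.67% against 18.4%), and the NRF1 site (GCGCATGCG) and the cyclic AMP response element (TGACGTCA) were in none (3.41% and 2.96% of eligible genes). Where the TU began within 1000 bases of the annotated start, which held for 63 of the 109 genes, the ETS letters were in 3 windows (4.76% against 21.2% of 6942). In those windows the GC box was in 66.7% against 67.6%, the CCAAT box in 39.7% against 37.7%, the TATA box in 9.52% against 5.82% and the SOX core in 4.76% against 6.06%.

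The other motifs searched are given here. The AP-1 site (TGANTCA) was in 4 (3.67% against 4.52%), the NF-kB site (GGNNTTTCC) in 7 (6.42% against 5.91%), the E-box in 6 (5.5% against 9.47%), the TCF/LEF site (CTTTGAA) in 4 (3.67% against 3.41%), the nuclear receptor site (AAGGTCA) in 6 (5.5% against 3.26%) and the CArG box (CCATATTAG) in none. The median window held 17 CpG against 21 over the eligible genes at the same median GC content of 60.7%, and 32 windows (29.4%) held fewer than 10 CpG against 20.8%. Where the TU began within 1000 bases of the annotated start, the nuclear receptor site was in 3.17% against 2.84%, the E-box in 6.35% against 10.2%, the TCF/LEF site in 1.59% against 3.15%, the AP-1 site in 4.76% against 3.96% and the NF-kB site in 6.35% against 5.85%, and 19% against 11.8% held fewer than 10 CpG. A match of letters is a description of the window and was not tested for binding.

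Median L of the 109 genes was 0.64 at 0.5 hpd (range 0.36 to 1.51), 0.77 at 1 hpd (0.45 to 1.71), 0.83 at 2 hpd (0.11 to 1.93) and 0.90 at 6 hpd (0.51 to 2.98). Over the 9852 eligible genes the medians were -0.01, -0.03, -0.04 and 0.00. The values at 0.5, 1 and 6 hpd chose the genes and are a description. The 2 hpd libraries entered the choice through the minimum mean count alone, whereas the NT libraries entered every threshold against NT. The 0.5 hpd mean was the highest in 5 genes, that of 1 hpd in 23, that of 2 hpd in 26 and that of 6 hpd in 55, and the level went up at each step in 30. A level of at least 2-fold NT was reached by 12, 29, 35 and 43 genes at the 4 times in turn, and a level of at least 4-fold by 8 genes at 6 hpd (among them Stum, Csmd2, F3, Id2, Rbm24, Sdk1 and Cited4).

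**Figure D1:**
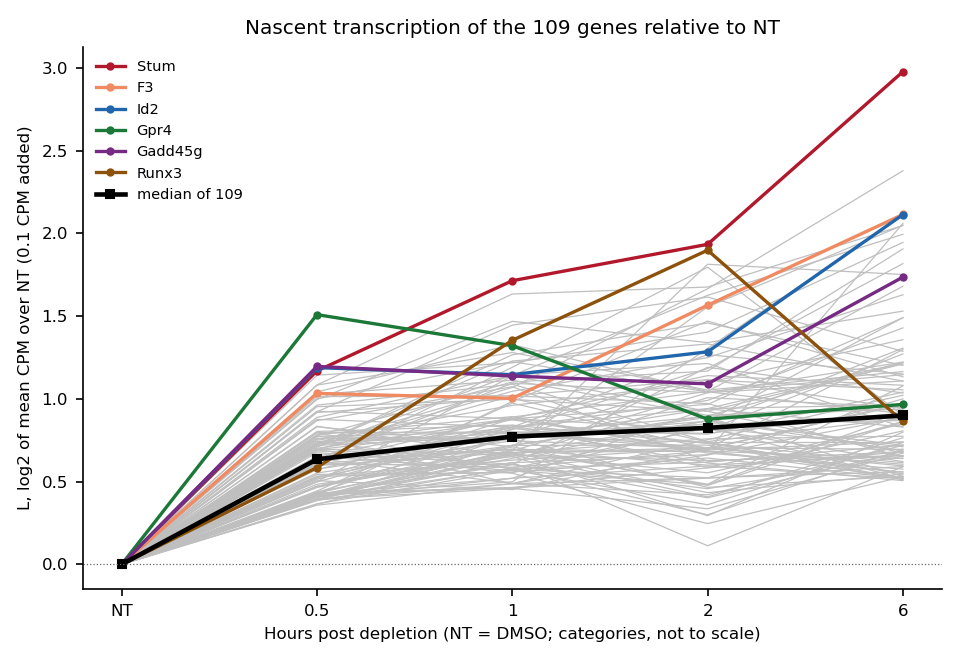
L of each of the 109 genes (grey lines; 6 genes coloured) and their median (black) in NT and at the 4 times, drawn as equally spaced categories. The median passes 0.64, 0.77, 0.83 and 0.90, Stum climbs at every step to 2.98, Gpr4 is highest at 0.5 hpd (1.51) and Runx3 at 2 hpd (1.90).

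In the edgeR fit over all TUs (quasi-likelihood F-test, Benjamini-Hochberg adjusted p under 0.05), 33 of the 109 genes were called higher than NT at 0.5 hpd (0.527% of the 28459 TUs tested were), 86 at 1 hpd (2.15%), 90 at 2 hpd (4.26%) and 103 at 6 hpd (6.61%). None was called lower at any time by edgeR or DESeq2, whereas edgeR called 0.787%, 3.61%, 5.57% and 9.2% of all TUs lower at the 4 times. At an unadjusted p under 0.05, too, 0 of the 109 were lower. The counts at 0.5, 1 and 6 hpd follow from how the genes were chosen. The 2 hpd count, given by role below as well, rests on the same NT libraries, and nothing is read from any of these counts. All 109 were tested, 33 were called at all 4 times, and 3 at none, among them Csmd2os and Adgra2. The count at 0.5 hpd was carried by few libraries. Leaving out NT replicate 1 gave 17, NT replicate 2 gave 2 and 0.5 hpd replicate 2 gave 5. Other choices raised it, among them the replicate number as a block, as given in the closing section. For 1 hpd, leaving out NT replicate 2 gave 50 and 1 hpd replicate 2 gave 53.

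Both depleted libraries lay above both NT libraries in 105 genes at 0.5 hpd (15.7% of the eligible genes did), 105 at 1 hpd (26.4%), 105 at 2 hpd (24.7%) and 108 at 6 hpd (32.9%). The exceptions included Adgra2 at all 4 times, Cited4 and Tmem89 at 0.5 and 1 hpd, Gsn at 0.5 hpd, Pcp4l1 at 1 hpd, and Elf3 and Cacng5 at 2 hpd. At 2 hpd, where the rule set no threshold on L, it ran down to 0.11 in Cacng5, a calcium channel subunit, 0.25 in Eva1b and 0.29 in Atp2a3, a calcium pump, and 19 genes were not called.

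Most of the genes were little transcribed in untreated cells. Their median level in NT was 0.260 CPM per kilobase of TU, against 1.21 over the eligible genes, at a similar TU length (median 33 against 35 kb). Their median mean count was 231 fragments against 692, and 22.9% had a mean count under 100 against 8.99%. The NT libraries entered every threshold against NT, so a low value in them helped a gene to pass. These levels are a description of the genes chosen. The Mt1 TU, from a metallothionein gene, had the highest level per length in NT (10.1 CPM per kilobase), and that of Csmd2 the lowest (0.0116). By the reference annotation 105 were protein-coding and 4 long non-coding RNAs. The TU covered at least 90% of the annotated transcript in 100 genes and under 50% in 4, namely Sdk1 (5.38%), Ryr3 (11.8%), Csmd2 (41.6%) and Dpm1-adnp (47.1%), for which the values speak only of the transcribed stretch.

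The margins of the rule were narrow for some genes. At 0.5 hpd the lowest values inside were L of 0.36 for Best3, a chloride channel of the bestrophin family, and 0.36 for Tuft1, and the highest outside were 0.35 for Fam13c (0.347 before rounding) and 0.34 for Scarb1, the receptor for high-density lipoprotein. At 1 hpd they were 0.45 for Pcp4l1 and 0.46 for Lrrc75a inside, with 0.45 for Cybrd1 (0.449 before rounding), a ferric reductase, and 0.44 for AY512931 outside. At 6 hpd 0.51 for Rassf3 and 0.51 for Pfkfb4 lay inside, and 0.48 for both Zbtb7c and Rimbp2 outside. Between 1 and 6 hpd the log2 difference was -0.49 for Runx3 and -0.48 for Fcgrt inside, and -0.52 for Trnp1 and -0.56 for Rph3a outside.

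Of the genes just outside, several had every depleted library above NT. In the order replicate 1 and replicate 2, used for all pairs of values here, Fam13c stood at 23.9 and 21.8 CPM in NT, then 27.8 and 30.4 (0.5 hpd), 34 and 32.5 (1 hpd), 35.8 and 33.7 (2 hpd) and 33.1 and 31.8 (6 hpd). Scarb1 stood at 117 and 106 CPM in NT, then 130.2 and 152 (0.5 hpd), 176 and 169 (1 hpd), 185 and 203 (2 hpd) and 167 and 169 (6 hpd). In both, every depleted library was above both NT libraries. Cybrd1 had 1.8 and 1.92 CPM in NT, then 2.4 and 2.43 (0.5 hpd), 2.49 and 2.65 (1 hpd), 3.41 and 3.45 (2 hpd) and 6.37 and 5.61 (6 hpd). For AY512931 the values were 2.36 and 1.99 CPM in NT, then 3.29 and 3.59 (0.5 hpd), 3.16 and 2.82 (1 hpd), 2.72 and 2.68 (2 hpd) and 3.92 and 2.97 (6 hpd). Cybrd1 was thus left out by its 1 hpd value, although its level at 6 hpd was above 3-fold NT. Zbtb7c was at 42.5 and 38.9 CPM in NT, then 54.3 and 56.1 (0.5 hpd), 67.7 and 63.9 (1 hpd), 71.3 and 60.5 (2 hpd) and 63 and 50.5 (6 hpd). Rimbp2 was at 18 and 18.8 CPM in NT, then 27.3 and 30.2 (0.5 hpd), 31.4 and 31.3 (1 hpd), 22.7 and 28.3 (2 hpd) and 21.5 and 29.8 (6 hpd). Both had a lower mean at 6 hpd than at 1 hpd. Trnp1 gave 2.64 and 2.83 CPM in NT, then 3.44 and 4.49 (0.5 hpd), 5.23 and 6.1 (1 hpd), 3.27 and 5.18 (2 hpd) and 3.57 and 4.26 (6 hpd). Rph3a, a synaptic vesicle protein, gave 1.59 and 1.38 CPM in NT, then 2.86 and 4.49 (0.5 hpd), 3.95 and 5.31 (1 hpd), 5.62 and 5.83 (2 hpd) and 3.36 and 2.86 (6 hpd). Rph3a held the larger early rise of the pair and was left out only for the later drop.

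**Figure D2:**
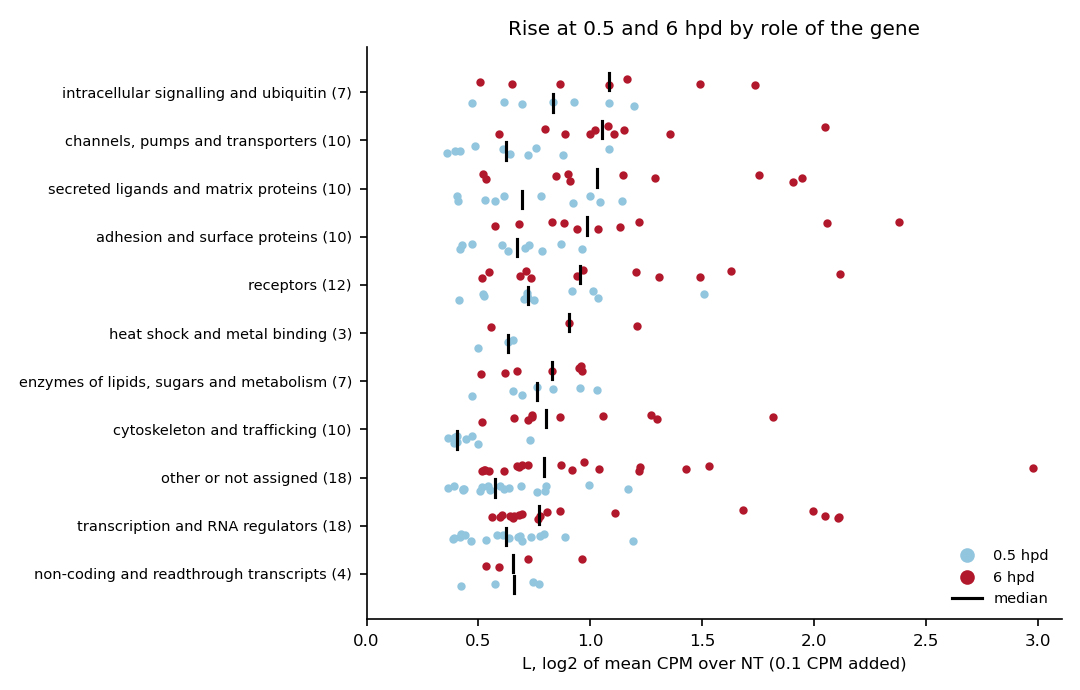
L at 0.5 hpd (light blue) and 6 hpd (red) of each gene, grouped by role (number of genes in brackets), with the median of each group as a black bar. Medians at 6 hpd run from 0.66 in the non-coding and readthrough transcripts to 1.08 in intracellular signalling, and Stum stands alone at 2.98.

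The 12 receptors, genes whose products pass signals from outside the cell, had a median L of 0.72 at 0.5 hpd (range 0.42 to 1.51) and 0.95 at 6 hpd (0.52 to 2.11), and 11 of 12 were called at 2 hpd. Gpr4, a receptor that senses protons, had the largest early rise of all 109 genes. It stood at 5.34 and 4.52 CPM in NT, then 14.7 and 13.7 (0.5 hpd), 13.2 and 11.7 (1 hpd), 9.48 and 8.8 (2 hpd) and 11 and 8.47 (6 hpd). The 0.5 hpd libraries were the highest of the course and the later ones came down towards NT without reaching it. F3, tissue factor, the receptor that starts blood coagulation, was at 3.88 and 2.6 CPM in NT, then 6.3 and 7.19 (0.5 hpd), 7.0 and 6.21 (1 hpd), 8.42 and 11.2 (2 hpd) and 15.8 and 13 (6 hpd). Here the 6 hpd libraries were the highest. Pdgfrb, the beta receptor for platelet-derived growth factor, had 12.2 and 9.04 CPM in NT, then 16 and 19 (0.5 hpd), 23.3 and 20.8 (1 hpd), 26.1 and 24.7 (2 hpd) and 41.3 and 24.9 (6 hpd). All 8 depleted libraries of Pdgfrb lay above NT, with the 6 hpd pair far apart.

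Fcgrt, the neonatal Fc receptor, was at 16.4 and 13.9 CPM in NT, then 24 and 33.6 (0.5 hpd), 29.6 and 31.5 (1 hpd), 21.5 and 29.3 (2 hpd) and 20.7 and 22.9 (6 hpd). Its level at 6 hpd was the nearest to NT of the 4 times. Adgra2, an adhesion G protein-coupled receptor, had 17.8 and 8.2 CPM in NT, then 20.9 and 13.8 (0.5 hpd), 26.3 and 14.3 (1 hpd), 31.8 and 15.9 (2 hpd) and 27.8 and 14.2 (6 hpd). Replicate 1 of Adgra2 exceeded replicate 2 in every group, the groups overlapped, and the gene was not called at any time. The others were Erbb3, a receptor of the epidermal growth factor family (L 0.70, 0.87, 0.73 and 0.55 at 0.5, 1, 2 and 6 hpd), S1pr3, for sphingosine 1-phosphate (1.01, 1.02, 1.12 and 0.94), Unc5b, for netrins (0.72, 0.77, 0.74 and 0.74), Rtn4rl1, a Nogo receptor homologue (0.52, 0.88, 0.97 and 1.49), Gprc5c (0.53, 0.76, 0.85 and 1.31), Adgrd1 (0.75, 0.58, 0.83 and 0.71) and Cd4, the T cell co-receptor (0.72, 1.27, 1.46 and 1.20). Rtn4rl1 and Gprc5c went up at every step, whereas Unc5b stayed within 0.72 to 0.77.

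The 10 secreted ligands and matrix proteins had a median L of 0.70 at 0.5 hpd and 1.03 at 6 hpd, and 9 of 10 were called at 2 hpd, Lgals1 being the exception. Wnt11, a WNT ligand that acts mostly without beta-catenin, stood at 2.91 and 3.14 CPM in NT, then 6.07 and 7.55 (0.5 hpd), 6.33 and 8.02 (1 hpd), 6.12 and 10.2 (2 hpd) and 11.6 and 12.3 (6 hpd). Timp3, an inhibitor of matrix proteases, was at 1.87 and 2.15 CPM in NT, then 3.91 and 4.58 (0.5 hpd), 6.27 and 4.12 (1 hpd), 4.51 and 3.99 (2 hpd) and 5.04 and 4.09 (6 hpd). Wnt11 went on climbing to 6 hpd while Timp3 was highest at 1 hpd. Tgfbi, a matrix protein induced by TGF-beta, had 2.84 and 3.45 CPM in NT, then 4.53 and 8.26 (0.5 hpd), 6.39 and 8.59 (1 hpd), 4.79 and 8.39 (2 hpd) and 5.67 and 6.34 (6 hpd). Sparc, a matrix glycoprotein that binds calcium, had 84.3 and 89.3 CPM in NT, then 119.6 and 131 (0.5 hpd), 125 and 131 (1 hpd), 125 and 146 (2 hpd) and 135 and 114 (6 hpd). In Sparc the 8 depleted libraries lay close together, all above NT. Further L values at the 4 times were 0.92, 1.45, 1.62 and 1.29 for Wnt7b, another WNT ligand, 0.78, 1.1, 1.17 and 1.91 for Tinagl1, 0.41, 0.72, 0.89 and 0.53 for the matrix protease Mmp17, 0.62, 1.19, 1.80 and 0.90 for Lipg, endothelial lipase, and 0.57, 0.84, 0.59 and 0.85 for Lgals1, galectin-1.

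Of 7 genes of intracellular signalling, 6 were called at 2 hpd, and their median L was 0.83 at 0.5 hpd and 1.08 at 6 hpd. Gadd45g, a stress-inducible protein that slows the cell cycle, was at 1.04 and 1.92 CPM in NT, then 2.63 and 4.4 (0.5 hpd), 2.74 and 4.01 (1 hpd), 2.72 and 3.81 (2 hpd) and 4.48 and 5.83 (6 hpd). Plcd1, a phospholipase C, was at 8.18 and 5.44 CPM in NT, then 13.5 and 15.6 (0.5 hpd), 18.9 and 14.5 (1 hpd), 14 and 14.5 (2 hpd) and 18.9 and 11.9 (6 hpd). Gadd45g was highest at 6 hpd, and Plcd1 held about one level from 0.5 hpd on. Fgr, a kinase of the SRC family, had 4.37 and 4.21 CPM in NT, then 7.23 and 9.25 (0.5 hpd), 7.73 and 8.25 (1 hpd), 8.7 and 10.5 (2 hpd) and 9.32 and 9.08 (6 hpd). Rassf3, of a family that binds RAS proteins, had 21.4 and 17.8 CPM in NT, then 29 and 31 (0.5 hpd), 33.6 and 36 (1 hpd), 30.6 and 29.4 (2 hpd) and 27.7 and 28 (6 hpd). The other 3 were Camk2a, a calmodulin-dependent kinase (L 0.83, 0.71, 0.48 and 0.86), and the ubiquitin ligase components Rnf128 (0.47, 0.67, 0.87 and 1.49) and Klhl15 (0.69, 1.02, 0.97 and 0.65). Camk2a was the 1 gene of the group not called at 2 hpd.

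**Figure D3:**
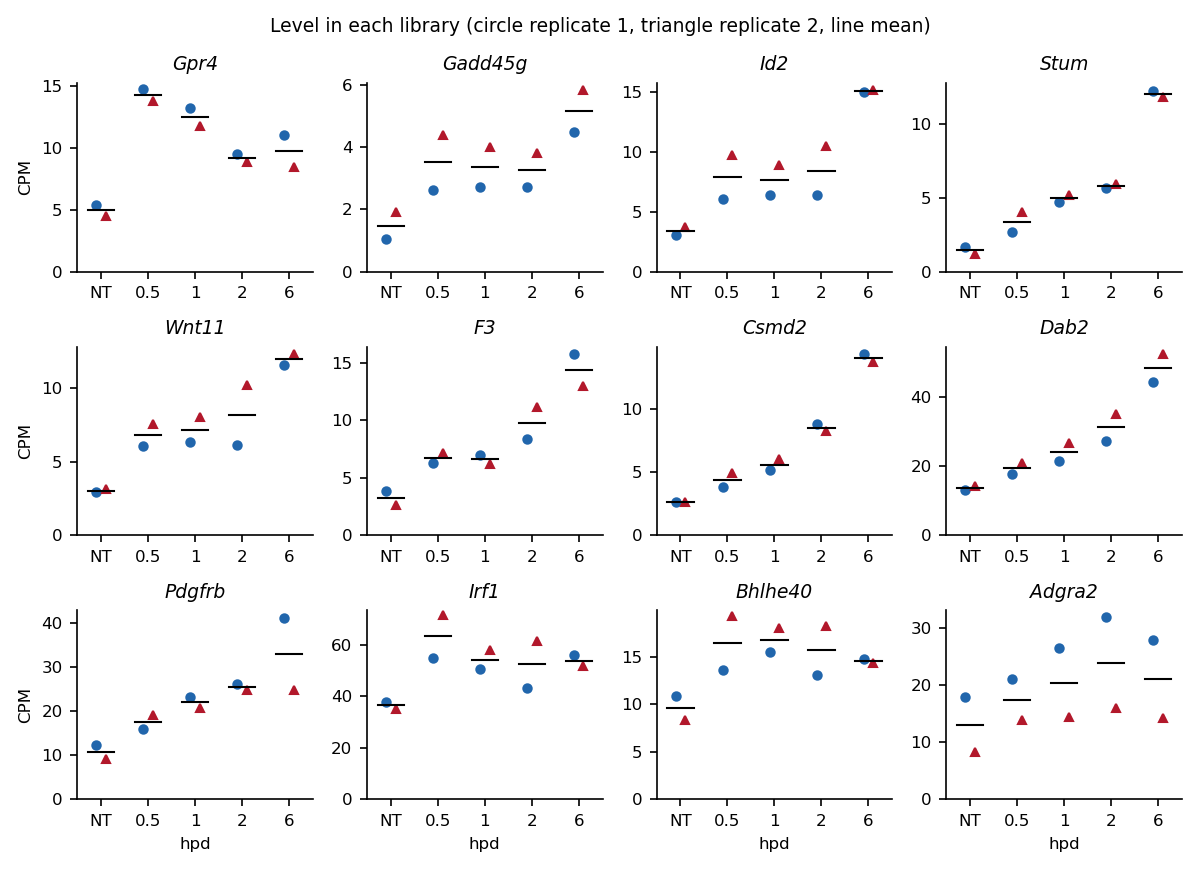
Level in CPM of 12 of the genes in each of the 10 libraries (blue circles replicate 1, red triangles replicate 2, bars the mean of 2), each panel from 0 on its own scale. Gpr4 starts at 5.34 and 4.52 CPM and peaks at 0.5 hpd, Stum, Csmd2 and Dab2 climb to 6 hpd, and in Adgra2 the replicates stay apart in every group.

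The 18 regulators of transcription and RNA had a median L of 0.62 at 0.5 hpd (range 0.39 to 1.19) and 0.77 at 6 hpd (0.56 to 2.11), with 12 highest at 6 hpd and 13 of 18 called at 2 hpd. Id2, which blocks basic helix-loop-helix factors and is a classical BMP target, was at 3.05 and 3.75 CPM in NT, then 6.07 and 9.7 (0.5 hpd), 6.39 and 8.92 (1 hpd), 6.4 and 10.5 (2 hpd) and 15 and 15.1 (6 hpd). Rbm24, a splicing regulator of muscle, was at 3.05 and 3.06 CPM in NT, then 3.75 and 4.49 (0.5 hpd), 3.53 and 5.2 (1 hpd), 7.73 and 7.67 (2 hpd) and 13.7 and 13.3 (6 hpd). Cited4, a partner of the coactivators CBP and p300, was at 5.41 and 15.9 CPM in NT, then 9.86 and 19.7 (0.5 hpd), 12.9 and 22.1 (1 hpd), 18.7 and 44.4 (2 hpd) and 39.9 and 49.1 (6 hpd). Id2 had an immediate gain and a second one after 2 hpd, whereas Rbm24 and Cited4 gained mainly from 2 hpd on. In Cited4 replicate 2 exceeded replicate 1 at all times, and its 0.5 and 1 hpd libraries overlapped with NT.

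Runx3, a runt domain factor, had 1.87 and 1.46 CPM in NT, then 2.4 and 2.7 (0.5 hpd), 4.08 and 4.74 (1 hpd), 5.94 and 7.02 (2 hpd) and 3.08 and 3.14 (6 hpd). It was highest at 2 hpd and lost most of the gain by 6 hpd. Irf1, an interferon regulatory factor and NF-kB target, had 37.9 and 35.1 CPM in NT, then 55.2 and 71.7 (0.5 hpd), 50.7 and 58.1 (1 hpd), 43.3 and 61.8 (2 hpd) and 56 and 51.8 (6 hpd). Cdx1, a caudal homeobox factor activated by WNT signalling, had 17.8 and 12.9 CPM in NT, then 26.2 and 23.5 (0.5 hpd), 26.7 and 22.3 (1 hpd), 25.3 and 26.7 (2 hpd) and 33.4 and 19.1 (6 hpd). Irf1 was highest at 0.5 hpd and Cdx1 kept about one level throughout. Smad6, an inhibitory SMAD of the BMP pathway, stood at 65.9 and 60.2 CPM in NT, then 83.7 and 98.9 (0.5 hpd), 96.2 and 99.1 (1 hpd), 104 and 102 (2 hpd) and 91.7 and 100.3 (6 hpd). Every depleted library of Smad6 was above NT. The others included Mn1 (L 0.89, 1.14, 1.63 and 2.00), the early B cell factor Ebf4 (0.61, 0.89, 1.05 and 1.68), Bhlhe40, a repressor linked to the circadian clock (0.77, 0.80, 0.71 and 0.60), and the epithelial factor Elf3 (0.68, 0.61, 0.40 and 0.68). Pou2f3, Foxo6, Smarcd3 and Lrrfip1 lay between 0.42 and 0.74 at 0.5 hpd and between 0.64 and 1.11 at 6 hpd.

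The 10 adhesion and surface proteins reached a median L of 0.99 at 6 hpd (0.58 to 2.38), from 0.67 at 0.5 hpd. Csmd2, a large membrane protein with CUB and sushi domains, was at 2.64 and 2.6 CPM in NT, then 3.87 and 4.94 (0.5 hpd), 5.17 and 6.04 (1 hpd), 8.79 and 8.27 (2 hpd) and 14.4 and 13.7 (6 hpd). Sdk1, a sidekick adhesion molecule of synapses, was at 1.39 and 1.61 CPM in NT, then 2.44 and 1.8 (0.5 hpd), 2.31 and 2.6 (1 hpd), 2.44 and 2.5 (2 hpd) and 5.95 and 7.18 (6 hpd). Cntn2, a contactin of axons, was at 9.43 and 7.66 CPM in NT, then 12.6 and 15.5 (0.5 hpd), 17.6 and 20.4 (1 hpd), 17.9 and 22 (2 hpd) and 16.8 and 13.7 (6 hpd). Csmd2 climbed at each step, Sdk1 mainly at the last, and Cntn2 came down after 2 hpd. L of the other 7 (Sdc4, Bcam, Lad1, Cdh22, Igsf21, Emb and Adam11) lay between 0.42 and 0.96 at 0.5 hpd and between 0.58 and 1.22 at 6 hpd, with Igsf21 the highest of them at 2 hpd (1.47).

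Among 10 channels, pumps and transporters the median L was 0.63 at 0.5 hpd and 1.05 at 6 hpd, and 8 of 10 were called at 2 hpd. Ryr3, a ryanodine receptor that releases stored calcium, had 3.88 and 3.14 CPM in NT, then 5.22 and 5.84 (0.5 hpd), 4.75 and 5.2 (1 hpd), 5.34 and 5.89 (2 hpd) and 5.88 and 7.29 (6 hpd). Best3 had 2.57 and 2.3 CPM in NT, then 3.33 and 2.96 (0.5 hpd), 4.14 and 2.77 (1 hpd), 4.23 and 4.1 (2 hpd) and 5.88 and 4.21 (6 hpd). In both, all depleted libraries were above NT. Steap3, a ferrireductase of iron uptake, had L of 0.76, 0.96, 1.1 and 1.36, Atp8b1, a phospholipid flippase, 0.72, 1.23, 1.33 and 1.11, Fxyd2, a modulator of the sodium pump, 0.88, 0.83, 1.27 and 1.15, Kcnq1, a potassium channel, 0.61, 0.70, 0.48 and 1.08, and Spns3 0.42, 0.61, 0.66 and 1.00. Cacng5 (0.40, 0.62, 0.11 and 0.59) and Atp2a3 (0.48, 0.65, 0.29 and 0.80) dipped at 2 hpd and were not called there.

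The 10 genes of the cytoskeleton and of trafficking had the lowest median early rise (0.41 at 0.5 hpd, range 0.37 to 0.73) of the 11 roles and a median L of 0.80 at 6 hpd. Dab2, an endocytic adaptor that is abundant in primitive endoderm, was at 13 and 14.4 CPM in NT, then 17.8 and 21 (0.5 hpd), 21.6 and 26.8 (1 hpd), 27.4 and 35.2 (2 hpd) and 44.6 and 52.7 (6 hpd). Its level went up at each step. Map1a, a microtubule-associated protein, had 17.3 and 17.4 CPM in NT, then 26.3 and 31.4 (0.5 hpd), 29.7 and 30.7 (1 hpd), 25 and 31.2 (2 hpd) and 33.6 and 24.6 (6 hpd). Whamm, an activator of actin nucleation, had 82.2 and 85 CPM in NT, then 102 and 119 (0.5 hpd), 123 and 127 (1 hpd), 125 and 132 (2 hpd) and 140.2 and 136 (6 hpd). Mypn, myopalladin of the sarcomere, had 46.9 and 47.3 CPM in NT, then 56.9 and 66.8 (0.5 hpd), 67.2 and 68 (1 hpd), 73.1 and 69.2 (2 hpd) and 64.9 and 70 (6 hpd). Map1a and Mypn stayed near their 1 hpd level, and Whamm was highest at 6 hpd. For Gsn, gelsolin, L was 0.44, 0.97, 0.70 and 1.30, for Lcp1, an actin-bundling plastin, 0.47, 0.77, 1.12 and 1.05, for Syne3, a nesprin, 0.39, 0.78, 0.81 and 1.27, and for Pdlim7 0.39, 0.49, 0.52 and 0.86. Rab11a, a GTPase of recycling endosomes, had 0.41, 0.66, 0.63 and 0.66 and Eps8l2 0.37, 0.57, 0.36 and 0.74.

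The 7 metabolic enzymes, all called at 2 hpd, had a median L of 0.76 at 0.5 hpd and 0.83 at 6 hpd, with 1 of 7 highest at 6 hpd. Ptges, which makes prostaglandin E2, was at 70.2 and 81.8 CPM in NT, then 122 and 173 (0.5 hpd), 140.1 and 164 (1 hpd), 116 and 173 (2 hpd) and 118 and 125 (6 hpd). Fut2, a fucosyltransferase, was at 2.7 and 2.99 CPM in NT, then 4.99 and 6.83 (0.5 hpd), 6.39 and 6.16 (1 hpd), 4.56 and 6.25 (2 hpd) and 6.65 and 4.6 (6 hpd). Extl1, an exostosin-like glycosyltransferase, was at 8.39 and 8.27 CPM in NT, then 11 and 17.3 (0.5 hpd), 12.2 and 16.2 (1 hpd), 14.3 and 17.8 (2 hpd) and 15.6 and 14.2 (6 hpd). Fut2 and Extl1 kept about their early level to 6 hpd, and the mean of Ptges was lowest at 6 hpd among the depleted groups. Pfkfb4, which sets the level of fructose 2,6-bisphosphate in glycolysis, had 15.7 and 14.2 CPM in NT, then 19.5 and 21.9 (0.5 hpd), 25.4 and 23.9 (1 hpd), 23.2 and 26.2 (2 hpd) and 22 and 20.6 (6 hpd). The others were Hs3st3b1, a heparan sulfate sulfotransferase (L 0.84, 0.65, 1.01 and 0.95), Gcnt4 (0.65, 0.88, 0.82 and 0.62) and Hsd17b11, a dehydrogenase of lipid droplets (0.69, 0.83, 0.94 and 0.96).

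Mt1, a metallothionein that binds zinc and copper, was at 37.9 and 49 CPM in NT, then 56.9 and 78 (0.5 hpd), 65 and 75.9 (1 hpd), 61.3 and 78.3 (2 hpd) and 78.4 and 49.7 (6 hpd). The heat shock family genes Hspb7 and Hspa12a had L of 0.65, 0.57, 0.48 and 0.90 and 0.50, 1.14, 0.93 and 1.21. Of the non-coding and readthrough TUs, Mir22hg, the host transcript of a microRNA, was at 24.3 and 17.9 CPM in NT, then 30.6 and 32.5 (0.5 hpd), 38.4 and 32.7 (1 hpd), 31.9 and 37 (2 hpd) and 43.8 and 38.9 (6 hpd). The TU of Dpm1-adnp, a readthrough annotation, began 2914 bases before the annotated start and covered only the part of the transcript nearest that start. It was at 113 and 102 CPM in NT, then 139 and 149 (0.5 hpd), 149.9 and 147 (1 hpd), 153 and 156 (2 hpd) and 161 and 164 (6 hpd). Both were highest at 6 hpd, with all depleted libraries above NT. Csmd2os, transcribed opposite to Csmd2, had 1.66 and 2.6 CPM in NT, then 4.14 and 3.14 (0.5 hpd), 2.86 and 4.58 (1 hpd), 2.95 and 5.0 (2 hpd) and 3.57 and 3.59 (6 hpd). It was not called at any time. Mir124a-1hg, another microRNA host, had L of 0.77, 0.76, 0.47 and 0.53.

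The 18 genes of other or unassigned role held both the largest change and some of the smallest. Stum, the homologue of a fly gene of mechanosensation, was at 1.66 and 1.23 CPM in NT, then 2.71 and 4.04 (0.5 hpd), 4.75 and 5.2 (1 hpd), 5.66 and 5.95 (2 hpd) and 12.3 and 11.9 (6 hpd). Its mean level at 6 hpd was 7.88-fold NT on the scale of L, the largest of the 109. AI661453, an uncharacterised gene, had 11.4 and 13.2 CPM in NT, then 15.4 and 19.9 (0.5 hpd), 20.6 and 23.3 (1 hpd), 22.4 and 26.8 (2 hpd) and 33.3 and 33.3 (6 hpd). Mest, an imprinted gene of the hydrolase fold, had 9.01 and 6.51 CPM in NT, then 13.2 and 13.9 (0.5 hpd), 13 and 14.2 (1 hpd), 13.9 and 13.1 (2 hpd) and 15.4 and 14.1 (6 hpd). AI661453 climbed at each step and Mest stayed at one level. Fam102a had 113 and 102 CPM in NT, then 135 and 155 (0.5 hpd), 143 and 154 (1 hpd), 142 and 180.1 (2 hpd) and 167 and 178 (6 hpd). Sh3tc1 had 55.7 and 48.6 CPM in NT, then 67.3 and 90.6 (0.5 hpd), 81.3 and 85.3 (1 hpd), 65.1 and 75.8 (2 hpd) and 77.1 and 75.2 (6 hpd). Both showed small gains with every depleted library above NT. Tuft1 was at 17.4 and 19.2 CPM in NT, then 23.4 and 23.8 (0.5 hpd), 28.5 and 30 (1 hpd), 28.7 and 31.1 (2 hpd) and 29.4 and 30.1 (6 hpd). Lrrc75a was at 44.4 and 38.9 CPM in NT, then 51.8 and 57.7 (0.5 hpd), 60.2 and 54.5 (1 hpd), 50.5 and 54.7 (2 hpd) and 70 and 63 (6 hpd). Pcp4l1, related to a calmodulin regulator of Purkinje cells, was at 2.57 and 3.68 CPM in NT, then 4.1 and 4.85 (0.5 hpd), 3.59 and 5.03 (1 hpd), 4.23 and 6.01 (2 hpd) and 5.39 and 7.07 (6 hpd). In Pcp4l1 a 1 hpd library overlapped with NT, which was not the case for Tuft1 and Lrrc75a. The other 10 (Prima1, Tmem159, Proser2, Nol4l, C2cd2l, Eva1b, Tmem89, Cfap45, Trim72 and Apobec2) had L of 0.43 to 1.00 at 0.5 hpd and 0.52 to 1.53 at 6 hpd, with Prima1, which anchors acetylcholinesterase, highest at both.

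The steps between successive times set the 2 hpd libraries against the 1 and 6 hpd libraries whose levels chose the genes, and are given as a description. From 1 to 2 hpd, 1 of the 109 genes was called by edgeR (0.218% of all TUs were). The median change of the 109 genes over that step was 0.09, against 0.02 over all TUs. From 2 to 6 hpd, 5 genes were called (0.777% of all TUs). Their log2 fold changes were 1.39 ± 0.23 (SE) in Sdk1, 1.03 ± 0.18 in Stum, 0.62 ± 0.13 in Dab2, -0.93 ± 0.20 in Lipg and -1.07 ± 0.20 in Runx3. Lipg stood at 2.57 and 2.22 CPM in NT, then 3.4 and 4.04 (0.5 hpd), 5.6 and 5.59 (1 hpd), 6.95 and 10.2 (2 hpd) and 5.18 and 3.93 (6 hpd). Its level at 6 hpd was still above NT in both libraries. Neither count held when libraries were left out, since the first was 0 without any 1 of the 1 or 2 hpd libraries, and the 5 genes became 0 without 2 hpd replicate 2 or 6 hpd replicate 2, 1 without 6 hpd replicate 1, and 3 without either NT or 1 hpd library or 2 hpd replicate 1. With the replicate number as a block both counts were higher, as given in the closing section.

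Replicates of these genes differed mostly one way at 0.5 hpd. At 0.5 hpd, replicate 2 was the higher library in 96 of the 109 genes (88.1%, against 57.1% of the eligible genes), by a median log2 difference of 0.24 against 0.04. That library was also the shallowest. Replicate 2 was higher in 75 genes at 1 hpd, 84 at 2 hpd, 43 in NT and 41 at 6 hpd, against 48.4%, 63.1%, 33.4% and 39.2% of the eligible genes. The NT and 0.5 hpd differences both entered the choice of genes, and what part the difference between libraries has in it was not tested.

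Applying the rule to the 4 libraries of 1 replicate number and reading the other number gave values that entered the choice through the minimum mean count alone. On replicate 1 alone the rule took 95 genes, of which 52 (54.7%) also met it in replicate 2, as did 1.53% of the eligible genes. In replicate 2 the median L of those 95 genes was 0.72, 0.78, 0.88 and 0.84 at 0.5, 1, 2 and 6 hpd, and 87 were above NT at all 3 times of the rule (91.6%, against 30.6% of eligible genes). On replicate 2 alone it took 151 genes, of which 52 (34.4%, against 0.964%) met it in replicate 1. There the median L was 0.30, 0.54, 0.54 and 0.71, lower at 0.5 hpd than the 0.70 seen in the replicate that chose them. The 52 genes that met the rule in each replicate number were the same 52 by construction, and all of them were among the 109.

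**Figure D4:**
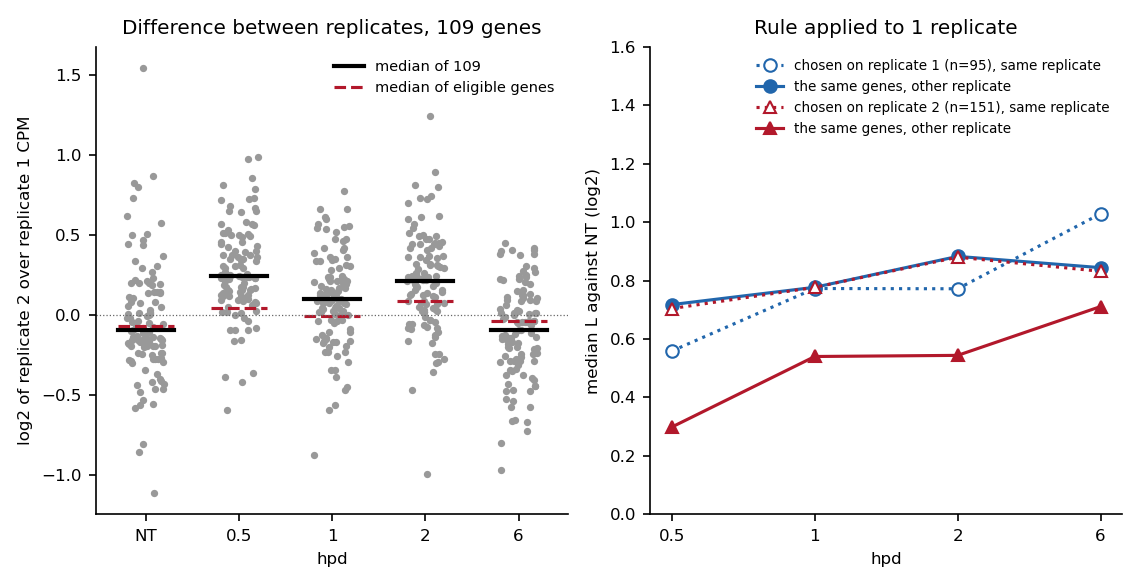
Left, log2 of replicate 2 over replicate 1 CPM for each of the 109 genes in each group (points), with their median (black) and that of the 9852 eligible genes (red dashes). Right, median L of genes chosen on replicate 1 alone (blue, n = 95) or replicate 2 alone (red, n = 151), in the replicate that chose them (open, dotted) and in the other (filled). At 0.5 hpd the genes chosen on replicate 2 fall from 0.70 to 0.30, while those chosen on replicate 1 go from 0.56 to 0.72.

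TUs on the opposite strand gave counts that the rule had not used. Of the 109 genes, 76 (69.7%, against 80.4% of the eligible genes) overlapped such a TU by at least 1 base. Leaving aside Pdgfrb, Cdx1, Csmd2 and Csmd2os, which overlap one another and are themselves among the 109, 104 of these 137 TUs were tested. At 1 hpd 4 were called higher (1.67% of the 9801 TUs opposite eligible genes were) and 1 lower (3.16%). At 6 hpd 10 were higher (4.4%) and 5 lower (7.73%). The medians of their log2 fold changes were 0.26 (1 hpd) and 0.14 (6 hpd), against -0.07 and -0.07 opposite the eligible genes, and 65.4% and 61.5% lay above 0, against 41.2% and 43.4%. Over the 69 TUs that overlapped by at least 50%, the 6 hpd median was 0.08 with 55.1% above 0, against -0.13 and 38.7%. The counts of higher TUs depended on single libraries, at 1 hpd with 1 without NT replicate 2 and 2 without any 1 of the 1 and 6 hpd libraries. At 6 hpd, leaving out replicates 1 and 2 of NT in turn gave 6 and 4, and leaving out those of 6 hpd gave 3 and 5. The lower TU at 1 hpd was lost without NT replicate 2 or 1 hpd replicate 1. The lower TUs at 6 hpd went from 5 to 0 without NT replicate 2 and to 1 without either 6 hpd library.

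**Figure D5:**
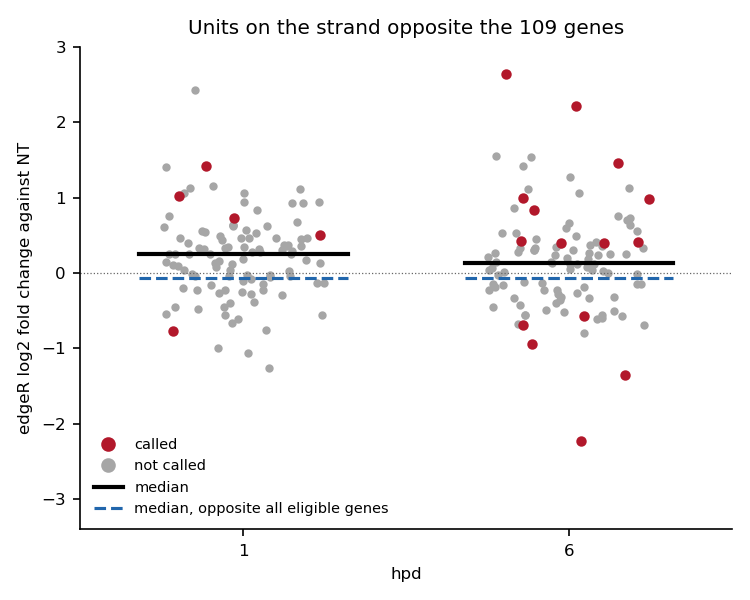
edgeR log2 fold change against NT at 1 and 6 hpd of the 104 tested TUs opposite the 109 genes (points; red where called), with their median (black) and the median opposite all eligible genes (blue dashes). The black bars stand at 0.26 and 0.14 and the blue ones at -0.07 at both times, with 5 called TUs at 1 hpd and 15 at 6 hpd.

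Opposite Extl1, the zinc transporter gene Slc30a2 stood at 17.5 and 19.3 CPM in NT, then 31.9 and 39.1 (0.5 hpd), 30.1 and 40 (1 hpd), 26.9 and 39.3 (2 hpd) and 31 and 30.6 (6 hpd). It was called higher at 1 hpd (edgeR, log2 fold change 1.02 ± 0.16, adjusted p = 8.7e-04), with all depleted libraries above NT, and again at 6 hpd. Opposite Ptges, the homeobox gene Prrx2 was at 2.7 and 1.3 CPM in NT, then 3.71 and 3.77 (0.5 hpd), 5.78 and 4.52 (1 hpd), 6.03 and 5.77 (2 hpd) and 3.43 and 2.8 (6 hpd), and was called higher at 1 hpd (log2 fold change 1.43 ± 0.29, adjusted p = 0.00723). The apoptosis inhibitor Aven, which overlaps the transcribed part of Ryr3, was at 101 and 101 CPM in NT, then 130.1 and 111 (0.5 hpd), 139 and 131 (1 hpd), 152 and 124 (2 hpd) and 127 and 126 (6 hpd) and was called at 1 hpd (log2 fold change 0.51 ± 0.14, adjusted p = 0.0438). The fourth TU was antisense to Mypn (log2 fold change 0.73 ± 0.20, adjusted p = 0.0461). Opposite Cntn2, Tmem81 went the other way. It was at 16.7 and 26.5 CPM in NT, then 15.9 and 17.3 (0.5 hpd), 9.98 and 13.8 (1 hpd), 11.8 and 13.1 (2 hpd) and 11.3 and 9.7 (6 hpd), and was called lower at 1 hpd (log2 fold change -0.76 ± 0.19, adjusted p = 0.026) and at 6 hpd (log2 fold change -0.95 ± 0.19, adjusted p = 0.00371).

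At 6 hpd the widest gain was antisense to Cited4, in a TU without a gene name that covers the whole Cited4 TU. It stood at 0.971 and 1.23 CPM in NT, then 1.28 and 1.8 (0.5 hpd), 1.52 and 2.43 (1 hpd), 2.53 and 3.99 (2 hpd) and 5.6 and 7.23 (6 hpd) (edgeR, log2 fold change 2.64 ± 0.31, adjusted p = 4.1e-05). The other higher TUs included 2 antisense to AI661453, Slc30a2, Gm36518 opposite Fgr, Gm39007 opposite Fut2 (an overlap of 6 bases), Ppip5k1 opposite Map1a, Copg2 opposite Mest and an extragenic TU opposite Sh3tc1, with log2 fold changes of 0.40 to 2.21. The highest of these, antisense to AI661453, had a mean of only 10.1 fragments (adjusted p = 0.049). The lower ones lay antisense to Smad6 (-2.23), Fcgrt (-1.36) and F3 (-0.69), with Tmem81 and, opposite Irf1, Gm12216 (-0.57). The antisense TU of Smad6 had a mean of only 11 fragments. Whether a change on one strand bears on the other was not tested.

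Downstream of the genes, within 5000 bases on the same strand, lay 10 TUs without a gene, of which 5 were tested, and none was called higher by edgeR at 1 hpd (0.183% of 545 such TUs of eligible genes were) or at 6 hpd (2.75%). At 2 hpd 1 of the 5 was called higher (1.65%), the TU downstream of Pfkfb4, which stood at 6.59 and 7.43 CPM in NT, then 6.5 and 7.64 (0.5 hpd), 8.88 and 8.13 (1 hpd), 9.8 and 9.88 (2 hpd) and 9.25 and 7.68 (6 hpd) (edgeR, log2 fold change 0.61 ± 0.16, adjusted p = 0.0291). At an unadjusted p under 0.05, edgeR counted 1 of the 5 as higher at 1 hpd and 0 at 6 hpd, and DESeq2 called 0 at those times. The 109 genes were spread over 19 chromosomes. Counted between TU starts, another of the 109 lay within 200 kb of 7 (6.42%, against 4.37% of the other eligible genes) and within 500 kb of 17 (15.6% against 9.55%). The nearest pair was Pdgfrb and Cdx1, whose TUs start 3854 bases apart and overlap on opposite strands, the TU of Pdgfrb beginning 26605 bases before its annotated start, with Camk2a in the same region. Further pairs within 500 kb were Csmd2 and Csmd2os, Tmem89 and Pfkfb4, Rtn4rl1 and Mir22hg, Cited4 and Foxo6, Atp2a3 and Spns3, S1pr3 and Gadd45g, and Adgrd1 and Mmp17.

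Of the gene lists for pathways, few held any of the 109. The BMP and TGF-beta list of 27 tested genes held Id2, Smad6 and Tgfbi, and 3 of its genes were called higher and 0 lower at 0.5 hpd, and 8 higher and 2 lower at 6 hpd. Of all TUs, 0.527% were higher and 0.787% lower at 0.5 hpd, and 6.61% and 9.2% at 6 hpd. The 3 shared genes supply part of these counts, and of the other 24, 1 was higher and 0 lower at 0.5 hpd, with 5 higher and 2 lower at 6 hpd. The NF-kB list held Irf1 (26 tested, 3 higher and 0 lower at 0.5 hpd, 5 and 4 at 6 hpd), and the WNT list Cdx1 (20 tested, 0 and 1, then 5 and 7). Without Irf1 the NF-kB counts were 2 and 0, then 4 and 4, and without Cdx1 the WNT counts were 0 and 1, then 4 and 7. No gene of the lists for immediate early genes, for feedback of receptor tyrosine kinases and ERK, for actin, SRF and YAP targets, for p53, ATF4, lysosome, Notch or nuclear receptor genes, or for sterol synthesis was among the 109. Only 1.11% of the eligible genes were, and the lists are short, so nothing is read from this absence. The rule could not take Atf3, Jun or symbols that open with Zfp or Slc. Of 28 sterol genes, 23 were called higher at 1 hpd (2.15% of all TUs) and 2 at 6 hpd (6.61%). Median log2 fold changes at 6 hpd were 0.02 for the BMP, 0.07 for the NF-kB and 0.13 for the WNT list (-0.02, 0.03 and 0.12 without the shared genes), against -0.04 over all TUs. That of the 109 genes was 1.00, which follows from how they were chosen.

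Markers of other cell types were read as summed CPM. The primitive endoderm list (13 genes in the table, 12 tested) held 3 of the 109, among them Dab2 and Sparc, and went from 637 to 660 CPM in NT to 705 to 728 CPM at 6 hpd. Its median log2 fold change at 6 hpd was 0.60, against -0.04 over all TUs, with 3 genes called higher and 1 lower. Without the 3 shared genes the median was 0.09, with 1 higher and 1 lower of 9, and the sum was 537 to 554 CPM in NT and 522 to 558 CPM at 6 hpd. Its defining genes Gata6, Gata4 and Sox7 stood at mean levels of 1.20, 1.08 and 0.173 CPM in NT and 2.05, 0.841 and 0.406 CPM at 6 hpd, none of them called at 6 hpd. What part such cells have in the values of the 109 genes was not tested. The fibroblast list held Pdgfrb and went from 29.3 to 30.6 CPM in NT to 42 to 59.3 CPM at 6 hpd. Without it the sum of the other 4 genes was 18.4 to 20.2 CPM in NT and 17.1 to 18.1 CPM at 6 hpd. Trophoblast markers summed to 293 to 319 CPM in NT, 347 to 378 CPM at 0.5 hpd, 374 to 379 CPM at 1 hpd, 315 to 329 CPM at 2 hpd and 326 to 346 CPM at 6 hpd. The 2 hpd range overlapped that of NT. In NT and at 6 hpd, primed epiblast markers summed to 121 to 130 and 81.4 to 85.4 CPM, mesoderm and early neural markers to 55.8 to 66.5 and 40.0 to 41.2 CPM, and 2-cell-like markers to 1.11 to 3.22 and 1.40 to 2.47 CPM. None of the defining markers of primitive endoderm stood at 0 in the mean of a group.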

How the data were processed

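Reads had been mapped by the authors to mm10 (BWA 0.7.17-r1188), filtered with SAMtools 1.10, freed of duplicates with Picard 2.12.0 and split by strand. TUs were defined on the pooled libraries with a hidden Markov model, and the authors deposited unnormalized counts of fragments in each. The rule was applied to all 40779 TUs. A minimum of over 10 fragments in 2 libraries left 28459 TUs, which were fitted in edgeR 4.0.16 (R 4.3.3) with TMM factors over all 10 libraries, without covariates. TMM set the median log2 change of all TUs 0.03 to 0.12 above that by total counts. L and CPM use library totals, not TMM. The biological coefficient of variation was 10.0%. Values in every library are given for the 8 genes with the largest L at 0.5 hpd, the 8 at 6 hpd, the 8 with the highest NT level per kilobase, genes of the lists, genes with a called opposite-strand TU and those at the thresholds, apart from Lipg, which a test singled out. Some genes that meet this are not reported here. Genes, lists and roles were chosen with earlier results of these data known, and roles after the values had been seen. Windows came from the RefSeq genome GRCm38.p6, and the 250 bases were identical in all 4093 compared with its promoter table. The fit was tested on simulated data. Alternatives were DESeq2 1.42.0, RLE factors, total counts, other count filters, only the libraries compared, a replicate block, other settings of the rule and leaving out each library.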

Additional observations from a re-analysis of the deposited data

How the results depend on the processing

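With the replicate number as a block, calls among the 109 genes became 77 at 0.5 hpd (33 without it), 5 between 1 and 2 hpd and 20 between 2 and 6 hpd, and opposite-strand TUs became 10 higher and 2 lower at 1 hpd and 19 higher at 6 hpd. The labels do not say what a replicate number stands for. Differences between replicates correlated across TUs at 0.07 to 0.29 between groups, and the block changed no other call count by over 1.5 times. With total counts, 0 genes were called between 1 and 2 hpd and 3 between 2 and 6 hpd. Opposite-strand TUs higher at 1 hpd were 7 with only the libraries compared. At 6 hpd the higher ones were 5 under a minimum mean count of 50, which leaves fewer TUs, and the lower ones 3 with that filter and 2 with DESeq2. With an overlap of at least 50%, 6 of 69 tested TUs were higher at 6 hpd, against 10 of 104 with at least 1 base.

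Leaving out each library in turn gave 2 to 44 genes at 0.5 hpd, 50 to 91 at 1 hpd, 0 to 1 between 1 and 2 hpd and 0 to 4 between 2 and 6 hpd. Opposite-strand TUs ranged over 1 to 6 (higher) and 0 to 1 (lower) at 1 hpd, and 3 to 12 and 0 to 5 at 6 hpd. The rule itself took 97 to 187 genes, most without NT replicate 1. Of the 109 genes, 81 (without NT replicate 2) to 103 (without 0.5 hpd replicate 1) were still taken. With TMM library sizes the rule took 160 genes and with a minimum mean count of 20 it took 156, all 109 included in both. A minimum mean count of 100 gave 84 genes, and 1 CPM added to each mean gave 93, of which 92 were among the 109. Single genes changed sign in 4 cases, none called. Cacng5 at 2 hpd ranged from -0.14 (without NT replicate 2) to 0.71, Cited4 at 0.5 hpd from -0.14 (without NT replicate 1; -0.0098 without 0.5 hpd replicate 2) to 1.39, and Gsn at 0.5 hpd from -0.056 (without 0.5 hpd replicate 2) to 0.86. The cause was not tested. Calls that stood without any single library numbered 2, 42, 58 and 69 genes at 0.5, 1, 2 and 6 hpd. The other counts kept their side, and of 7412 fold changes of these genes under the alternatives 6736 kept direction and call, 461 lost the call and 211 gained it. The mean was under 100 fragments in 25 of the genes, and what part depth has in the lost calls was not tested.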
